A study of Mus musculus with 6 samples.

Results

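Pou5f1, which encodes Oct4, together with Sox2, Klf4 and Myc are the 4 reprogramming factor genes that the organoids of this study express on addition of doxycycline. They were taken by name from the gene tables, 4 of 55416 Ensembl gene identifiers (ENSMUSG00000024406, ENSMUSG00000074637, ENSMUSG00000003032 and ENSMUSG00000022346). All 4 were present in both deposited tables and passed the filter on low counts, which kept 16975 genes for testing.

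Oct4 and Sox2 are transcription factors of the early embryo that bind DNA as a pair and hold pluripotent cells in their state, Klf4 is a zinc finger factor that also works in surface epithelia, and Myc is a growth factor-responsive regulator that binds DNA with its partner Max. Expressed together they can turn differentiated cells back towards pluripotency. In the intestinal lining, Klf4 is known from differentiated cells, goblet cells among them, Myc is a Wnt target of the dividing crypt cells, and Oct4 and Sox2 are normally silent.

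Organoids of the small intestine, which are gel-embedded cultures of its epithelium, were made from mice of 4 to 8 weeks. The mice carried both transgenes on both alleles, Rosa26-rtTA Tg/Tg together with Col1A1-TetO-OSKM Tg/Tg. This genotype was shared by every group, untreated controls included, so each library could contain cassette RNA. The rtTA protein, made from the Rosa26 locus, activates the TetO promoter of the cassette at the Col1A1 locus only when doxycycline is bound. Organoids received no doxycycline, 0.1 µg/ml (the low dose) or 0.5 µg/ml (the high dose) for 3 days, with 2 RNA-seq libraries a group. The series' design text calls the libraries biological replicates without saying whether they came from separate mice or cultures, so p-values measure only the spread between these libraries.

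Libraries held between 45289760 and 72547738 expected counts in all. The 10 epithelial markers, among them Epcam, Cdh1 and Vil1, summed to 4660 to 5130 TPM in control, 5660 to 6000 TPM at the low dose and 5640 to 5810 TPM at the high dose, with none at 0. At the high dose against control 5 of them rose and 5 fell. Krt20 rose 3.34-fold, Krt8 2.71-fold, Vil1 1.62-fold, Lgals4 1.45-fold and Cdh1 1.17-fold. Cdx2 fell 3.03-fold, Cdx1 2.96-fold, Fabp1 1.99-fold, Krt18 1.83-fold and Epcam 1.33-fold. The 13 fibroblast markers summed to 37.1 to 41.5, 54.9 to 56.0 and 62.5 to 64.8 TPM in control, at the low dose and at the high dose. Most of that sum was 1 gene, Fbln1, with 35.5, 53.7 and 60.9 TPM on average, and of 5 tested fibroblast markers Fbln1, Col1a1 and Dcn rose at the high dose against control while Vim fell 16.7-fold and Pdgfrb 4.71-fold. The 13 immune markers summed to 8.61 to 8.73, 9.22 to 9.95 and 16.4 to 16.6 TPM. There Cd68 had 2.6, 5.28 and 14.2 TPM on average, and of 4 tested immune markers Cd68 and Ptprc rose at the high dose against control while Cd14 fell 2.77-fold and Itgam 2.53-fold. The 8 endothelial markers summed to 0.23 to 0.37, 0.65 to 0.66 and 1.38 to 1.51 TPM, and all 3 that were tested rose at the high dose. Beside these counts of markers, 34.4% of all tested genes rose and 33.1% fell at the high dose against control. Dcn, Ptprc and Tie1 had no control count and passed the low-count filter only through high-dose libraries, so a fall could not have been found for them. Tek, with 17 control counts, passed only through treated libraries, so a fall could hardly have been found for it. In control, Dcn, Lum and Thy1 of the fibroblast list, Ptprc, Cd4, Cd8a, Adgre1 and Itgax of the immune list, and Cdh5, Kdr, Tie1, Cldn5 and Emcn of the endothelial list were at 0. At the low dose Col3a1 and Lum, Cd3e, Cd4 and Adgre1, and Cdh5, Cldn5 and Emcn were at 0. At 0.5 µg/ml Col1a2 and Col3a1, Cd3e, Cd8a, Adgre1 and Itgax, and Cdh5, Kdr, Cldn5 and Emcn were at 0. The part of these shifts in the results on the factors was not tested.

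The native genes lie on mouse chromosomes 17 (Pou5f1), 3 (Sox2), 4 (Klf4) and 15 (Myc). Their own promoters are shown because the tables count reads per gene, so that RNA from the native locus and RNA from the cassette, which is transcribed from the TetO promoter, cannot be told apart. Sequences are the 250 bases before the transcription start from RefSeq (GRCm38.p6), 5′ to 3′ on the gene's strand, at chr17:35505782-35506031 (plus strand), chr3:34649745-34649994 (plus strand) and chr4:55532476-55532725 (minus strand); 3 of the 4 factors had an entry. Capitals mark matches to CACCC or its reverse complement GGGTG, the core that KLF factors bind, in Pou5f1, and to CACGTG, the E-box that Myc and Max bind and which is its own reverse complement, in Klf4.
Pou5f1: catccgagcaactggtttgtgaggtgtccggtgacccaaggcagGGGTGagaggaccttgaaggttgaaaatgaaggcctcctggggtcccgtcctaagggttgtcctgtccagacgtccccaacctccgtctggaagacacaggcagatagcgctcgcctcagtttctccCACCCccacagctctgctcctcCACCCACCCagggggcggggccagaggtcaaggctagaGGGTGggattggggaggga
Sox2: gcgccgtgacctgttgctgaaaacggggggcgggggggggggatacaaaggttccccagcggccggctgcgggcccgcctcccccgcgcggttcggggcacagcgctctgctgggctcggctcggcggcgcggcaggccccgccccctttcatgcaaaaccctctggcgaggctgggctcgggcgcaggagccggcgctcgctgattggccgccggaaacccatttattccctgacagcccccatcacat
Klf4: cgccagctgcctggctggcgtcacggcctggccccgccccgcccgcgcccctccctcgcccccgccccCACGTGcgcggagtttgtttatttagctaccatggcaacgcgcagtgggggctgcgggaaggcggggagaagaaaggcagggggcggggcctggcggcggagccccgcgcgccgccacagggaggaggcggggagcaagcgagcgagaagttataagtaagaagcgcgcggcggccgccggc

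Pou5f1 held 5 CACCC matches, of which a pair share a base, and Klf4 held 1 CACGTG, 182 bases before the start. On either strand, neither the octamer ATGCAAAT of POU factors nor the SOX core ACAATG occurred in these 3 windows, and Sox2 held none of the 4 motifs. Among 32851 promoters of the same length, 52% held CACCC, 6.02% CACGTG, 10.7% ACAATG and 1.6% ATGCAAAT. A match describes these letters and is not evidence of a bound site.

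In control organoids the 4 genes stood at very different levels, and doxycycline brought them to within a few-fold of each other. On the length-corrected TPM scale, Pou5f1 had 0.32 and 0.14 TPM in control, 132 and 140 TPM at the low dose, and 458 and 488 TPM at the high dose. Sox2 had 0.06 and 0.2 TPM in control, 50.2 and 52.9 TPM at the low dose, and 168 and 192 TPM at the high dose. Both were thus close to silent without doxycycline: their control values rest on 12 and 7 expected counts for Pou5f1 and 5 and 16 for Sox2. Klf4 had 13.7 and 11.9 TPM in control, 138 and 136 TPM at the low dose, and 430 and 438 TPM at the high dose. Myc had 26.3 and 26.6 TPM in control, 206 and 225 TPM at the low dose, and 678 and 777 TPM at the high dose. For each of the 4 genes every 0.5 µg/ml library lay above every 0.1 µg/ml library, and every 0.1 µg/ml library above both controls.

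**Figure D1:**
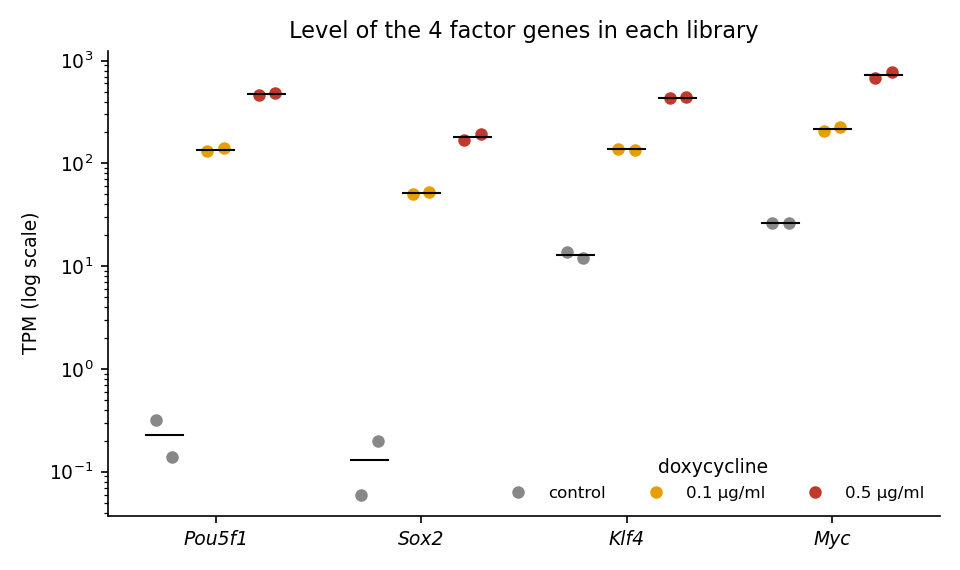
TPM of Pou5f1, Sox2, Klf4 and Myc (log scale) in each of the 6 libraries, with a bar at the group mean, ordered by dose. No groups overlap for any gene: Sox2 lies at 168 and 192 TPM at 0.5 µg/ml against 0.06 and 0.2 TPM in control, and Myc at 678 and 777 TPM at 0.5 µg/ml against 26.3 and 26.6 TPM in control.

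The order of the levels changed with induction. In control, Myc (26.4 ± 0.255 TPM) stood above Klf4 (12.8 ± 1.25 TPM), while Pou5f1 (0.23 ± 0.127 TPM) and Sox2 (0.13 ± 0.099 TPM) overlapped (SD, n = 2 for this and the following means). At the low dose Myc led with 216 ± 13.7 TPM, Klf4 (137 ± 1.01 TPM) and Pou5f1 (136 ± 5.73 TPM) overlapped, and Sox2 was lowest with 51.5 ± 1.88 TPM. At 0.5 µg/ml the order was Myc (728 ± 69.9 TPM), Pou5f1 (473 ± 21.4 TPM), Klf4 (434 ± 6.24 TPM) and Sox2 (180 ± 17.0 TPM), and no neighbours in that order overlapped. Among all 55416 identifiers ranked by mean TPM, Pou5f1 moved through places 15493, 796 and 218 with rising dose. Sox2 held places 16893, 2248 and 569, Klf4 places 6694, 788 and 239, and Myc places 4093, 481 and 172. Together the 4 genes took 40.4 and 38.9 TPM in control, 526 and 555 TPM at the low dose, and 1730 and 1900 TPM at the high dose. In bulk libraries more cells expressing a factor and more of its RNA per cell cannot be told apart.

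All 4 factors rose at the high dose of 0.5 µg/ml against control. In edgeR's quasi-likelihood test with Benjamini-Hochberg adjustment over all tested genes, 67.5% of the 16975 genes passed at 0.05 in this comparison, 34.4% higher and 33.1% lower, so the factors share the call itself with most tested genes. Their sizes were large: in edgeR's fit Pou5f1 rose by 11.33 on the log2 scale (SE 0.1, adjusted p = 3.16e-12), the 35th highest of 16975 changes. Sox2 rose by 10.50 (SE 0.15, adjusted p = 2.57e-11), the 57th highest. Klf4, already expressed in control, rose 24.8-fold (log2 4.63, SE 0.07, adjusted p = 3.63e-11), which ranked 658th, and Myc rose 18.8-fold (log2 4.23, SE 0.07, adjusted p = 4.33e-11), which ranked 750th. Pou5f1 and Sox2, with 19 and 21 control counts, passed the low-count filter only through treated libraries. A fall against control could hardly have been found for them at either dose. The few control counts also limit the size of the Pou5f1 and Sox2 changes: without the first control library Sox2 rose by 9.91, and without the second by 11.52. On log2(TPM + 1), where the pseudocount understates changes from low levels, limma gave 8.59 for Pou5f1 and 7.32 for Sox2.

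All 4 factors were raised at the lower dose too. At 0.1 µg/ml against control, 34.6% of genes passed the same test, 20.8% higher and 13.8% lower; the total of 5881 genes was 3800 without the first 0.1 µg/ml library. Pou5f1 rose by 9.48 (SE 0.11, adjusted p = 3.89e-11), the 13th highest change, and Sox2 by 8.63 (SE 0.16, adjusted p = 5.24e-10), the 35th highest. For Sox2 the value was 8.03 without the first control library and 9.65 without the second. On log2(TPM + 1), limma gave 6.80 for Pou5f1 and 5.54 for Sox2. Klf4 rose 7.31-fold (log2 2.87, SE 0.07, adjusted p = 2.41e-09) and Myc 5.62-fold (log2 2.49, SE 0.06, adjusted p = 4.02e-09), 573rd and 654th by size.

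Between the doses the 4 factors moved by nearly the same amount. At 0.5 µg/ml against 0.1 µg/ml, where 58.9% of genes passed and 29.8% were higher, edgeR's quasi-likelihood test gave log2 changes of 1.85 for Pou5f1 (SE 0.05, adjusted p = 7.34e-09) and 1.87 for Sox2 (SE 0.08, adjusted p = 5.08e-08). Klf4 rose by 1.76 (SE 0.06, adjusted p = 1.99e-08) and Myc by 1.74 (SE 0.06, adjusted p = 1.85e-08). The 4 values span 3.35-fold to 3.65-fold, for a 5-fold step in dose, and ranked between 922nd and 1014th. Differences between the factors in this step were not tested.

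Subtracting the control mean leaves the part of each level that was added with doxycycline, on the scale of CPM (counts relative to the TMM-scaled size of their library). The added Pou5f1 was 499 ± 18.5 CPM at the high dose and 138 ± 4.1 CPM at the low dose, a ratio of 3.60 that ranged from 3.44 to 3.78 over pairs of libraries. For Sox2 the added level was 309 ± 22.3 CPM at the high dose and 84.6 ± 2.15 CPM at the low dose, a ratio of 3.65 (3.41 to 3.91). The added Klf4 was 728 ± 18.1 CPM at the high dose and 193 ± 0.141 CPM at the low dose, a ratio of 3.78 (3.71 to 3.84). For Myc it was 790 ± 61.6 CPM at the high dose and 205 ± 13.1 CPM at the low dose, a ratio of 3.85 (3.48 to 4.26). All pairs of libraries thus stayed below the 5-fold ratio of the doses for each factor. The ranges of the 4 factors overlapped in CPM, and in TPM the ratios of added level were 3.48, 3.5, 3.39 and 3.71 in the same order of genes.

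In mouse lines of this design the cassette joins the coding sequences under a single promoter, so the levels of the 4 genes within a library were compared. On the TPM scale Pou5f1 was 2.72 and 2.54 times the level of Sox2 in the 0.5 µg/ml libraries, against 2.63 and 2.65 times at the low dose. Klf4 was 2.55 and 2.28 times Sox2 at the high dose, against 2.75 and 2.58 times at the low dose. Myc was 4.03 and 4.04 times Sox2 at the high dose, against 4.10 and 4.26 times at the low dose. The ratio of Pou5f1 overlapped between the doses, and those of Klf4 and Myc were slightly lower at the high dose. In exact two-sided permutation tests of the 3 ratios, p was 1.0 for Pou5f1, 0.333 for Klf4 and 0.333 for Myc, and 0.333 is the smallest that 2 against 2 libraries allow.

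The spread between the 4 genes depended on the length they were divided by. The coding sequences have 1059 bases in Pou5f1, 960 in Sox2, 1452 in Klf4 and 1365 in Myc (GENCODE M21). In CPM per kilobase of coding sequence, the mean ratio to Sox2 was 1.46 at the high dose and 1.48 at the low dose for Pou5f1. It was 1.63 at the high dose and 1.74 at the low dose for Klf4, and 1.90 at the high dose and 2.07 at the low dose for Myc. With the control mean also subtracted, an alternative chosen after seeing the data, the ratios were 1.56 at the high dose and 1.51 at the low dose for Klf4, and 1.80 at the high dose and 1.70 at the low dose for Myc. On that scale the Klf4 libraries of the doses overlapped, and Myc stood higher relative to Sox2 at the high dose, the other way round from the levels. Sox2 was the lowest of the 4 genes in every treated library on each of these scales. Control ratios are left out because the control level of Sox2 rests on 21 counts.

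**Figure D2:**
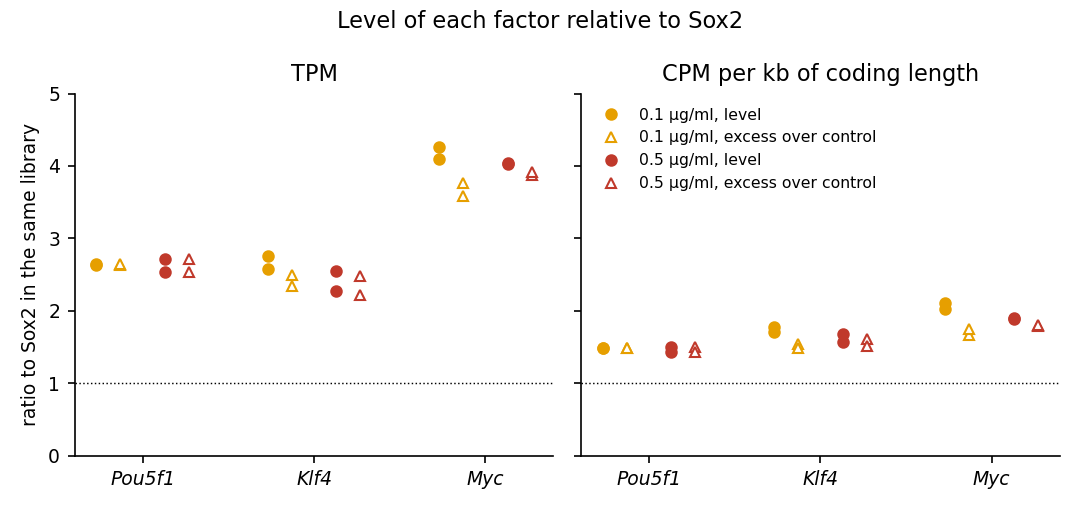
Ratio of Pou5f1, Klf4 and Myc to Sox2 in the same treated library, in TPM (left) and in CPM per kilobase of coding sequence (right); circles are levels and triangles the level minus the control mean, 2 libraries a dose, and the dotted line is a ratio of 1. Myc lies at 4.03 to 4.26 in TPM and at 1.90 and 2.07 on average per coding kilobase, and each point stays above 1.

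With doxycycline, Klf4 and Myc also changed in how expected counts convert to TPM. RSEM divides a gene's expected count by an effective length, the length of its annotated transcripts weighted by their estimated shares, so the count per TPM, set relative to the control mean and to the median gene of each library, follows that length. Klf4 had 0.658 and 0.677 of its control value at the low dose and 0.672 and 0.702 at the high dose. Myc had 0.673 in both libraries at the low dose and 0.639 in both at the high dose. The control libraries lay at 0.993 and 1.01 for Klf4 and at 1.01 and 0.994 for Myc, so the treated values stand well outside their spread. Among 7860 genes with at least 500 counts and 5 TPM in every library, the central 95% lay between 0.922 and 1.07 at the low dose and between 0.879 and 1.09 at the high dose. Only 3 genes at the low dose and 15 at the high dose lay below Klf4, and 4 and 6 lay below Myc.

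Sox2 stayed at 0.977 and 0.978 at the low dose and at 0.979 in both libraries at the high dose. Pou5f1 was at 1.13 in both libraries at the low dose and at 1.11 and 1.13 at the high dose, but its control libraries lay at 0.851 and 1.15. With 19 control counts in all, the direction for Pou5f1 depends on which control library is used: at the high dose it was 0.975 to 1.32 when 1 library was left out. GENCODE M21 lists 3 transcripts for Klf4 (522 to 3029 bases), 8 for Myc (381 to 2338 bases), 6 for Pou5f1 (435 to 1362 bases) and 1 for Sox2 (2057 bases). With 1 listed transcript Sox2 could hardly shift in this quantity, so its steady value is no contrast to Klf4 and Myc. The control value of Sox2 also rests on 21 counts. The cause of the shift in Klf4 and Myc was not tested. Their changes were larger in TPM than in counts: on log2(TPM + 1), limma gave 4.98 for Klf4 and 4.73 for Myc at the high dose against control, beside 4.63 and 4.23 from the counts.

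**Figure D3:**
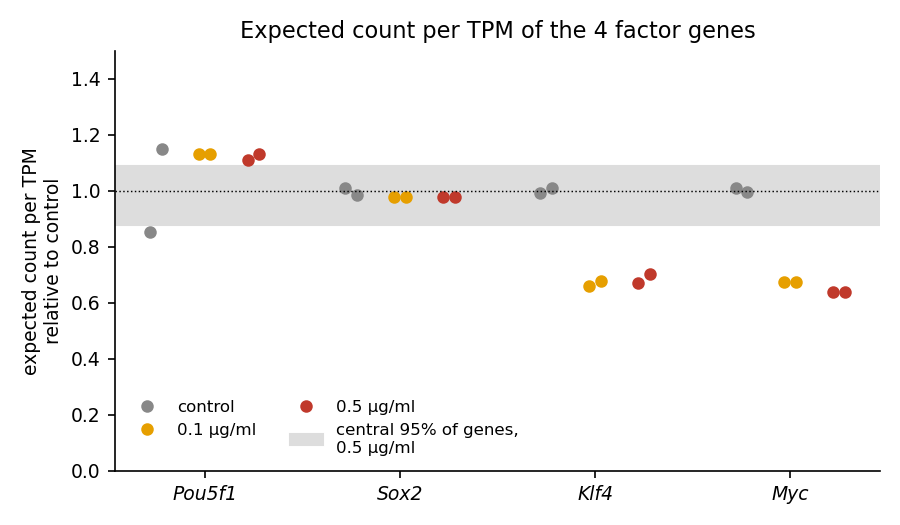
Expected count per TPM of each factor in each library, relative to its control mean and to the median gene; the grey band is the central 95% of 7860 genes at 0.5 µg/ml (0.879 to 1.09). Klf4 (0.658 to 0.702) and Myc (0.639 to 0.673) lie below the band in all 4 treated libraries. Sox2, with 1 listed transcript, lies within it, and the Pou5f1 controls scatter widely.

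The genes whose course over the 6 libraries was most like that of each factor were found by the Euclidean distance between log2(CPM + 0.05) values, each minus its own control mean, among 10548 tested genes of at least 5 CPM in a group. Being chosen for likeness, they are given as a description. Pou5f1 and Sox2 lay 1.95 apart and Klf4 and Myc 0.808, while Pou5f1 and Klf4 lay 12.7 apart. Nearest to Pou5f1 were Prom2 (distance 1.38), Mal (1.43), Cd109 (1.62), Krt13 (1.65) and Aldh3a1 (1.71). Nearest to Sox2 were Muc5ac (0.627), Cd109 (0.649), Prom2 (0.773), Fetub (1.04) and Mal (1.12), so 3 names stand in both sets. Like both factors, these genes were almost silent in control: Krt13, a keratin of stratified epithelia, had 0.0405 and 0.0997 CPM in control, 42.5 and 36.8 CPM at the low dose, and 344 and 360 CPM at the high dose. Muc5ac, a secreted mucin of the stomach and airway, had 0 and 0.0399 CPM in control, 20 and 19.1 CPM at the low dose, and 100 and 80.4 CPM at the high dose.

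Nearest to Klf4 were Pla2g4c (distance 0.273), Epop (0.314), Klrg2 (0.416), Tmem151a (0.419) and Epha4 (0.421). Epop, which encodes a partner of Polycomb repressive complexes, had 14.2 and 12.6 CPM in control, 98.5 and 91.5 CPM at the low dose, and 382 and 388 CPM at the high dose. Nearest to Myc were Elavl2 (distance 0.23), Camsap2 (0.335), Slc45a3 (0.337), Scnn1a (0.364) and Capn2 (0.424). Scnn1a, a subunit of the epithelial sodium channel, had 4.66 and 5.05 CPM in control, 29.9 and 29.5 CPM at the low dose, and 77.5 and 81.8 CPM at the high dose. At 0.5 µg/ml against control the log2 changes were 4.44 to 5.06 for the 5 genes like Klf4 and 4.03 to 4.44 for the 5 like Myc, beside 4.63 and 4.23 for the factors themselves.

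Of 14 other POU genes, which share the DNA-binding domain of Oct4, 6 were tested at the high dose against control and all 6 rose (median log2 change 2.52, against -0.00446 over all tested genes, of which 34.4% rose). Pou4f2 and Pou2f2 had 0 and 8 control counts and passed the low-count filter only through treated libraries. A fall could hardly have been found for them, so the count and the median are descriptions. Pou4f2, a neuronal POU factor, had no count in either control library, 1.23 and 1.08 CPM at the low dose, and 15.4 and 11.0 CPM at the high dose, which is at least 220-fold higher at the high dose than a floor of 3 counts per control library. Pou6f1 rose 10.1-fold, Pou2f3, the tuft cell regulator, 5.94-fold and Pou4f1 5.55-fold. Pou2f2 rose by 1.88 on the log2 scale from 8 control counts, but the value was 2.85 without the first control library, and the call was lost without the second (1.27), without the first high-dose library (1.79) and in DESeq2. Pou2f1, the broadly expressed Oct1, rose 1.15-fold in counts, but its direction turns on the TPM scale, where limma gave -0.02. At the low dose Pou4f2, Pou6f1, Pou2f3 and Pou4f1 rose and no POU gene fell, beside 20.8% and 13.8% of all tested genes. In treated libraries all stayed far below Pou5f1: the highest, Pou2f1, averaged 5.68 TPM in control, 4.43 TPM at the low dose and 5.58 TPM at the high dose.

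Of 19 other SOX genes, 9 were tested at the high dose against control, and 5 rose and 4 fell (median 1.81), where 34.4% of all tested genes rose and 33.1% fell. Of those that rose, Sox1, Sox11 and Sox18 had 0, 2 and 11 control counts and passed the low-count filter only through treated libraries. Sox4, Sox6 and Sox9, the last a factor of intestinal crypts and Paneth cells, fell 4.22-fold, 3.53-fold and 2.68-fold, and Sox12 fell 1.31-fold. Sox4 had 144 and 118 CPM in control, 59.1 and 72.2 CPM at the low dose, and 31.8 and 30.5 CPM at the high dose. Sox13 rose 7.5-fold and Sox21, a relative of Sox2 known as its antagonist, rose 5.05-fold. Sox1, the closest of these to Sox2 in subgroup, had no control count and was at least 39.2-fold above the floor at the high dose. Sox18 rose by 1.81 on the log2 scale, and Sox11 rose on 27 counts at the high dose against 2 in control, a ratio of 14.0 with a 95% exact interval of 3.52 to 122 for counting error. Sox11, Sox12 and Sox18 each lost the call under at least 1 alternative. The low dose against control called Sox13, Sox21 and Sox1 higher and Sox4, Sox6, Sox9 and Sox12 lower. In TPM Sox2 overtook Sox4, which averaged 32.9 in control, 16.1 at the low dose and 7.29 at the high dose.

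Among the KLF relatives, 15 of 16 genes were tested, and 10 rose and 4 fell at the high dose against control (median 1.39). The 4 that fell are a share close to the 33.1% of all tested genes that fell, and the 10 that rose compare with 34.4%. Klf5, a factor of proliferating crypt cells that is often set against Klf4, fell 2.38-fold, with 96.5 and 89.3 CPM at the high dose against 243 and 200 CPM in control. Klf7 fell 3.97-fold, Klf1 2.66-fold and Klf11 1.39-fold. The largest rises were those of Klf8 (log2 7.84, from 6 control counts), Klf12 (4.33), Klf17 (3.21, from 6 control counts) and Klf3 (1.94). Klf8, Klf17 and Klf15, another that rose (10 control counts), passed the low-count filter only through treated libraries. A fall could hardly have been found for these genes. Klf6 did not pass, at 412 and 407 CPM at the high dose against 483 and 280 CPM in control. With the low dose 6 rose against control, and Klf5, Klf7, Klf10 and Klf11 fell, beside 20.8% and 13.8% of all tested genes. On the TPM scale Klf5 (81.1) and Klf6 (132) stood above Klf4 (12.8) in control, and Klf4 (434) stood above Klf3 (233) and Klf6 (131) at the high dose.

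**Figure D4:**
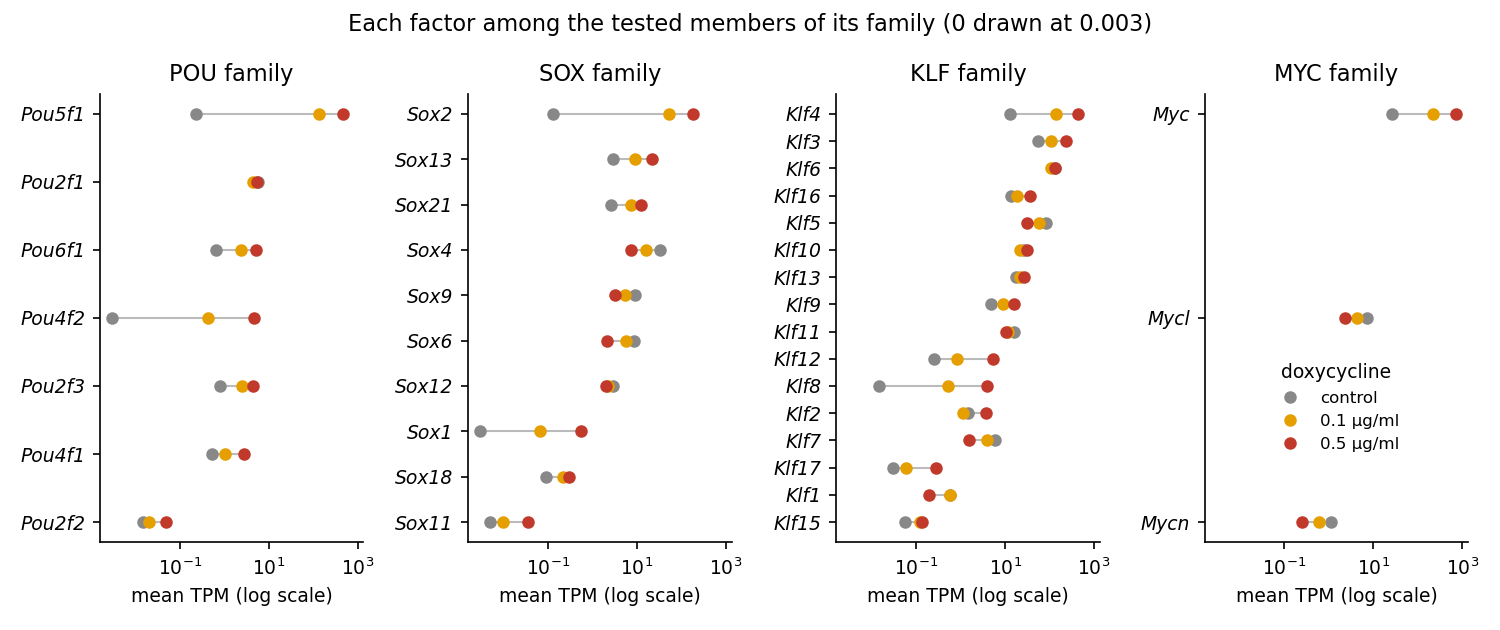
Mean TPM (log scale, n = 2) of each factor and the tested members of its family in control, at 0.1 and at 0.5 µg/ml doxycycline, sorted by the 0.5 µg/ml level; a mean of 0 is drawn at the left edge. Each factor is the highest of its family at 0.5 µg/ml, while Sox4, Sox9, Klf5, Klf7, Mycl and Mycn lie lower at 0.5 µg/ml than in control.

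Both other Myc genes fell as Myc rose. Mycn had 2.47 and 2.15 CPM in control, 1.27 and 1.14 CPM at the low dose, and 0.504 and 0.422 CPM at the high dose, 5.0-fold lower at the high dose than in control (log2 -2.32, SE 0.23, adjusted p = 1.01e-05, edgeR's quasi-likelihood test). Mycl had 20.5 and 17.2 CPM in control, 11.4 and 12.5 CPM at the low dose, and 5.54 and 6.23 CPM at the high dose, 3.19-fold lower (log2 -1.67, SE 0.11, adjusted p = 6e-07). The groups did not overlap for either gene. Of the 13 family members and partners, all tested, 8 rose and 4 fell at the high dose against control (median 0.48), and 3 rose and 3 fell at the low dose against control (5 rose without the first control library). Of all tested genes, 34.4% rose and 33.1% fell at the high dose and 20.8% rose and 13.8% fell at the low dose, so the number that fell at the high dose and the number that rose at the low dose were near this background.

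Max, the obligate partner of Myc, rose 1.40-fold, with 73.3 and 69.2 CPM at the high dose against 51.2 and 50.8 CPM in control. Genes for proteins that compete with Myc for Max rose as well: Mxd1 5.51-fold, Mxd3 2.77-fold, Mxi1 1.88-fold, Mnt 1.59-fold and Mxd4 1.55-fold. Mga, another Max partner, rose 1.26-fold. Mxd1 had 98.6 and 106 CPM at the high dose against 19.2 and 17.9 CPM in control. In the parallel branch, Mlx rose 2.23-fold, while Mlxipl, the glucose-responsive ChREBP, fell 2.38-fold and Mlxip fell 1.12-fold, a call that Mlxip lost when either of 2 libraries was left out. Zbtb17, which encodes Miz-1, the partner through which Myc represses genes, did not pass at the high dose, with 26.7 and 29.8 CPM against 26.7 and 24.0 CPM in control. Under the low dose Mxd1, Mlx and Mxi1 rose and Mycn, Mycl and Mlxip fell. None of the partners rose as much as Myc itself.

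Known targets of the factors were then read at both doses. Of 14 genes known as targets of Oct4 and Sox2 or markers of embryonic stem cells, 8 had enough counts to be tested, and 4 of these rose at the high dose against control and none fell, where 34.4% of all tested genes rose. Those that rose, Esrrb, Sall4, Lin28a and Zfp42, had 1, 2, 1 and 0 control counts and passed the low-count filter only through treated libraries. A fall could not have been found for them, so the count and the median of the 8 are descriptions only. The median was 3.70 as fitted and 1.76 with Zfp42, which had no control count, set at its lower bound. Esrrb, an orphan nuclear receptor of the pluripotency network, had 0.0203 and 0 CPM in control, 5.28 and 5.97 CPM at the low dose, and 11.5 and 9.11 CPM at the high dose. Sall4, a zinc finger factor of early embryo cells, had 0.0203 and 0.0199 CPM in control, 0.262 and 0.163 CPM at the low dose, and 2.41 and 2.78 CPM at the high dose. Lin28a, an RNA-binding protein that blocks let-7 processing, had 0 and 0.0199 CPM in control, 0.152 and 0.122 CPM at the low dose, and 1.74 and 1.59 CPM at the high dose. The groups did not overlap for any of these 3 genes, and the step between the doses was small for Esrrb and large for Sall4 and Lin28a. Between 0.5 and 0.1 µg/ml, edgeR's quasi-likelihood test gave 1.83-fold for Esrrb (adjusted p = 0.000564), 11.7-fold for Sall4 (adjusted p = 3.16e-06) and 11.8-fold for Lin28a (adjusted p = 1.07e-05).

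Zfp42, the Rex1 gene of naive pluripotent cells, had no control count and 0.527 and 0.422 CPM at the high dose, at least 7.87-fold above the floor. With the low dose all 4 genes passed against control, where 20.8% of all tested genes rose. Zfp42 lost that call in DESeq2, with the replicate number as a block, and with any 1 library left out. It stayed under the floor with 6 counts in all. Lin28a lost the call in DESeq2 and without the first control or the first low-dose library. Fbxo15, Lefty1, Spp1 and Dppa5a did not pass in any comparison. Nanog had 1 library with a count, 0.0229 CPM at the high dose, and Utf1 had 0.0687 and 0.0767 CPM at the high dose against 0 in control. Fgf4 and Dppa4 had at most 0.0458 CPM, and Tdgf1 and Tcl1 had no count in any library. A floor of 3 counts corresponds to 0.0414 to 0.0687 CPM, so levels of Nanog, Utf1, Fgf4, Dppa4, Tdgf1 and Tcl1 were close to or below what this depth can show. Lefty1 lay above the floor, with 1.69 CPM on average in control, 1.74 at the low dose and 1.71 at the high dose.

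Targets that Myc activates, genes of ribosome assembly, nucleotide and polyamine synthesis and translation, moved by small amounts and mainly at the higher dose. Of 30 genes, all tested, 23 rose and 4 fell at the high dose against control, with a median of 0.26 on the log2 scale, where 34.4% of all tested genes rose and 33.1% fell. Under limma on log2(TPM + 1) the number that rose was 15, and 11 with every gene above 0 tested. At the low dose 4 rose against control (Ccnd2, Ldha, Eno1 and Eif4a1), 4 fell (Cdk4, Hspe1, Hspd1 and Shmt2) and 22 did not pass, with a median of -0.02. Over all tested genes 20.8% were higher and 13.8% lower, so neither number was above this background in edgeR's fit. Without the first control or the first low-dose library 2 rose, and with upper quartile scaling 7 fell. Between 0.5 and 0.1 µg/ml 21 rose and 3 fell, where 29.8% of all genes rose and 29.1% fell. The highest changes at the high dose against control were those of Ccnd2, cyclin D2 (2.17-fold), Odc1, the first enzyme of polyamine synthesis (2.12-fold), Srm, spermidine synthase (1.72-fold) and Rrs1, a ribosome assembly factor (1.43-fold). Odc1 had 228 and 221 CPM in control, 240 and 242 CPM at the low dose, and 476 in both libraries at the high dose. Cdk4, the kinase partner of D cyclins, fell 1.80-fold, Tert, the telomerase catalytic subunit, 1.69-fold, and the mitochondrial chaperonins Hspe1 and Hspd1 fell 1.45-fold and 1.14-fold.

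Of the 24 genes of this list with a RefSeq promoter entry, 6 (25%) held CACGTG in the 250 bases before a start, namely Cdk4, Eif4a1, Eif4e, Hspd1, Ldha and Nme1. Counted per promoter, 7 of 32 (21.9%) held it, against 6.02% of all promoters. Of these 6, 4 rose and Cdk4 and Hspd1 fell at the high dose against control. In the whole list of 30, 23 rose and 4 fell, and of all tested genes 34.4% rose and 33.1% fell. A difference between list members with and without the E-box was not tested. Eif4a1, the RNA helicase of translation initiation, rose the most of the 6, with 1370 and 1390 CPM at the high dose against 1050 and 1020 CPM in control (1.33-fold). Its promoter (RefSeq, GRCm38.p6, chr11:69672424-69672673, minus strand, 5′ to 3′) is shown with the E-box in capitals, 189 bases before the start, close to the place of the E-box of Klf4.
Eif4a1: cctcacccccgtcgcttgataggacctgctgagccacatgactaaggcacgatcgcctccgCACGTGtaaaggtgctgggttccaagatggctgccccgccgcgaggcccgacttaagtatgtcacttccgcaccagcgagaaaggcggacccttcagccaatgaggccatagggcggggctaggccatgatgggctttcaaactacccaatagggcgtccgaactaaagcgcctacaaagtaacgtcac

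Of 7 genes that Myc represses, 5 fell and 2 rose at the high dose against control (median -0.32), where 33.1% of all tested genes fell and 34.4% rose. Ndrg2, a differentiation-linked gene, fell 2.42-fold, Cdkn1b, the p27 inhibitor of cyclin-dependent kinases, 1.88-fold, Gadd45a 1.58-fold and Gadd45b 1.25-fold, and the remaining gene, Ndrg1, fell 1.12-fold. Cdkn1a, the p21 inhibitor, went against its list and rose 3.10-fold, with 427 and 412 CPM at the high dose against 130 and 141 CPM in control, and Cdkn2b rose 1.27-fold. The calls of Gadd45b, Ndrg1 and Cdkn2b were each lost under several alternatives: 1 gene rose without the second control library or either high-dose library, and 3 fell without the first high-dose library. Cdkn1a is also a known target of Klf4, and of p53. With the low dose 4 of the 7 fell against control and 2 rose, where 13.8% of all tested genes fell and 20.8% rose; 1 rose without the first low-dose library, and 2 fell in limma with every gene above 0 tested.

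Of 11 epithelial targets of Klf4, 7 rose and 2 fell at the high dose against control (median 1.09), and 7 rose and 2 fell at the low dose against control (1 fell when either control library or the first low-dose library was left out). Of all tested genes 34.4% rose and 33.1% fell at the high dose, and 20.8% rose and 13.8% fell at the low dose, so the number that fell at the low dose was near this background. The list does not separate genes that Klf4 activates from genes that it represses, so a rise is not a response in a known direction. Odc1, among those that rose, is also in the Myc-activated list. Krt13, with 7 control counts, passed the low-count filter only through treated libraries, and Krt4 only through control libraries. Krt13, given above, was highest, followed by Sprr1a (9.39-fold), Ccnd1, cyclin D1 (5.78-fold), and Sprr2a3 (5.14-fold); Sprr1a and Sprr2a3 encode small proline-rich proteins of the cornified envelope. Reads of Sprr2a3 may be shared with near-identical copies of the Sprr2 cluster, so its value is uncertain. Muc2, the goblet cell mucin, fell 7.10-fold, with 37.3 and 30.6 CPM at the high dose against 232 and 250 CPM in control. Krt4 fell 11.2-fold from 49 control counts. Alpi, the alkaline phosphatase of absorptive cells, rose 2.19-fold at the low dose, with 155 and 116 CPM against 58.9 and 65.2 CPM in control, but stood at 70.2 and 57.4 CPM at the high dose.

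**Figure D5:**
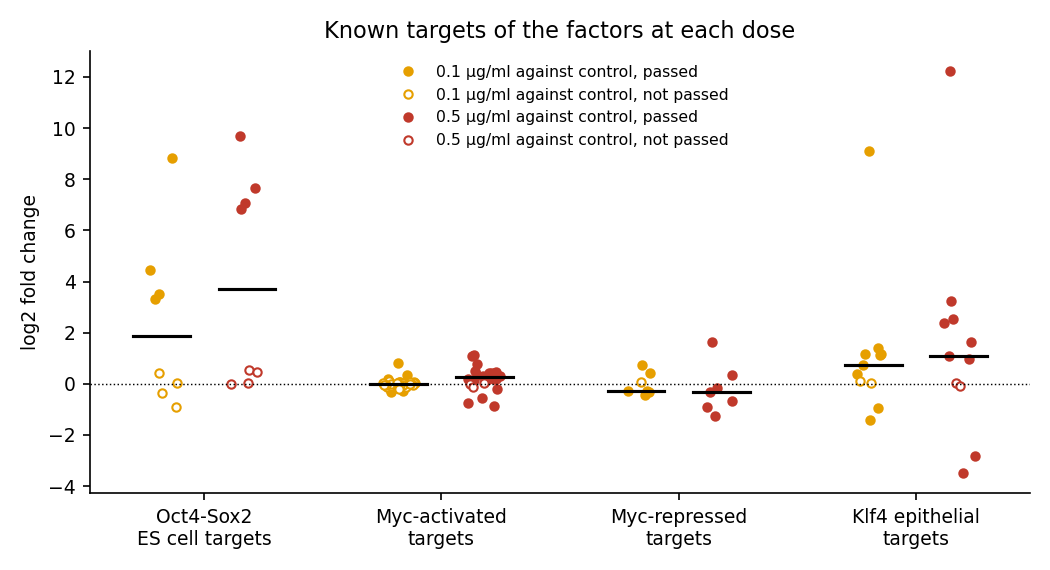
Log2 fold change of the tested members of 4 target lists at 0.1 and 0.5 µg/ml against control; filled points passed edgeR's test at an adjusted p of 0.05, open points did not, and bars are list medians as fitted. The median of the Myc-activated targets lies at -0.02 at 0.1 µg/ml and 0.26 at 0.5 µg/ml, and 4 of 8 Oct4-Sox2 targets, Esrrb, Zfp42, Lin28a and Sall4, lie high at 0.5 µg/ml.

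Of 12 genes listed beside the native loci, 8 were tested at the high dose against control, and 4 rose and 4 fell by less than 2-fold, where 34.4% of all tested genes rose and 33.1% fell. Next to Pou5f1, Tcf19 fell 1.63-fold and Cchcr1 1.40-fold at the high dose against control. Around Sox2, Atp11b rose 1.69-fold and Dnajc19 fell 1.39-fold, and Sox2ot, the long noncoding RNA whose gene overlaps Sox2, had no count in any of the 6 libraries. Near Klf4, Rad23b rose 1.11-fold, a call lost under 6 alternatives, and Actl7a and Actl7b had at most 0.101 CPM. Near Myc, the noncoding RNA Pvt1 rose 1.95-fold, Fam49b rose 1.24-fold and Lratd2 fell 1.14-fold, while Gsdmc had no count. Pvt1 had 5.15 and 5.04 CPM at the high dose against 2.78 and 2.45 CPM in control, and Myc rose 18.8-fold in the same libraries. Other neighbours lay outside the list and were named after their values were seen. Beside Sox2, Fxr1 (log2 0.08) and Dcun1d1 (log2 -0.07) did not pass at the high dose against control in edgeR's test. A1bg, beside Myc, had no count in any library. Some of the others changed by more than the listed genes. H2-Q7 and H2-Q10, class I histocompatibility genes beside Pou5f1, fell by 1.77 (adjusted p = 4.23e-07) and 1.91 (adjusted p = 5.97e-09) on the log2 scale at the high dose against control in edgeR's test, and their reads may be shared with near-identical copies. Zfp462, beside Klf4, fell by 1.83 (adjusted p = 6.18e-05), with 0.641 and 0.556 CPM at the high dose against 1.86 and 2.37 CPM in control. Gsdmc2, beside Myc, had no count in control, 1.03 and 0.836 CPM at the low dose, and 3.34 and 3.2 CPM at the high dose. That is at least 54.3-fold higher at the high dose than the floor, and reads of Gsdmc2 may be shared with close copies in its gene cluster.

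At the loci that carry the transgenes, Col1a1, the collagen gene that hosts the cassette, had 0.304 and 0.459 CPM in control, 1.54 and 1.67 CPM at the low dose, and 3.78 and 4.07 CPM at the high dose. It rose 10.2-fold at the high dose against control (log2 3.35, SE 0.22, adjusted p = 5.78e-07, edgeR's quasi-likelihood test), and its groups did not overlap. Col1a1 is also 1 of the 13 fibroblast markers, of which, as given above, 3 rose, 2 fell and 8 were too low to test; Col1a2 and Col3a1 were at 0 at the high dose. The part of fibroblast RNA in the Col1a1 change was not tested. Of the listed genes around Col1a1, Sgca and Tmem92 had at most 0.0916 CPM. Ppp1r9b had 40.5 and 42.0 CPM in control, 49.2 and 50.6 CPM at the low dose, and 45.0 and 41.1 CPM at the high dose. It did not pass at the high dose against control, but rose 1.21-fold at the low dose (adjusted p = 0.0036) and fell 1.16-fold between the doses (adjusted p = 0.00713); the low-dose call was lost in limma on TPM and the call between the doses without the second high-dose library. At Rosa26, Gt(ROSA)26Sor, the noncoding RNA of the locus, fell 2.43-fold, with 1.88 and 0.921 CPM at the high dose against 3.59 and 3.11 CPM in control. Its neighbour Thumpd3 fell 1.70-fold and Setd5 did not pass, with 115 and 110 CPM at the high dose against 117 and 125 CPM in control. Expression of rtTA itself was not analysed here.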

How the data were processed

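Small intestinal organoids were profiled by poly-A, strand-specific RNA-seq on an MGI sequencer, with 2 libraries in each of 3 groups. Per the submitters' processing notes, the tools named are RSEM 1.3.3 and STAR 2.7.3a, beside Trim Galore and FastQC, with no settings. Those notes name both GRCm39 and mm10 without tying either to the tables, so no coordinates of the tables are printed. The deposited expected counts are RSEM estimates per gene, per the file headers, which the authors left without normalization. The deposited TPM values, so named in the authors' file headers, have by definition been divided by effective length and scaled within each library.

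Symbols and lengths came from GENCODE M21 and matched 52083 of 55416 identifiers; the unmatched ones held 0.18 to 0.26% of counts. Expected counts were rounded, filtered with edgeR's filterByExpr and TMM scaled (edgeR 4.0.16, R 4.3.3), and 3 comparisons were tested over all 6 libraries with the quasi-likelihood test and Benjamini-Hochberg adjustment at 0.05; no sample was dropped. TPM was also tested with limma 3.58.1 on log2(TPM + 1), and DESeq2 1.42.0 was run as an alternative. All adjusted p-values in the text are edgeR's. The 2 comparisons with control share its libraries. Counting intervals are exact at 95%, and intervals and floors cover counting error only. The fits were tested on simulated data.

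The 4 factors and all gene lists were chosen with earlier results of these data known. Named were the factors, the 5 genes nearest in pattern to each, every tested POU, SOX and Myc family member, Oct4-Sox2 target and locus gene, and up to 4 called members with the highest and 4 with the lowest change in the other lists. Klf10, Klf6, Klf15, Zbtb17, Ldha, Eno1, Eif4a1, Shmt2, Alpi, Gsdmc2, H2-Q7, H2-Q10, Zfp462, Fxr1, Dcun1d1, A1bg and the marker genes given with values were named in addition, after their values were seen. Promoters were read from RefSeq (GRCm38.p6). The value of 1 immune marker is not reported here.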

Additional observations from a re-analysis of the deposited data

How the results depend on the processing

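All 12 log2 changes of the 4 factors kept their direction and their call under each of 15 alternatives (another scaling, no low-count filter, DESeq2, limma on TPM, only the compared groups, the replicate block, and each library left out); the highest adjusted p among them was 1.82e-03, for Sox2 between the doses. Of 109 genes followed through these alternatives and called at 0.5 µg/ml against control, 12 lost the call under at least 1 alternative (Pou2f1, Pou2f2, Sox11, Sox12, Sox18, Mlxip, Rad23b, Cdkn2b, Gadd45b, Ndrg1, Eno1 and Zfp462). At 0.1 µg/ml against control 30 of 83 did, and between the doses 18 of 104. Pou2f1 turned to -0.02, -0.03 and -0.02 at 0.5 µg/ml against control with limma on log2(TPM + 1), on log2(TPM + 0.1) and with every gene above 0 tested; the cause was not tested.

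The number of genes called at 0.1 µg/ml against control, 5881, was 3505, 3508 and 2520 in the same 3 limma fits, and 3800 to 5248 with 1 library left out. Replicate numbers did not pair the libraries (correlations of deviations -0.039, 0.0767 and 0.01); with the number as a replicate block 11162, 5265 and 9607 genes were called, against 11465, 5881 and 10002.

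The ratios to Sox2 depended on the length scale. Per kilobase of coding sequence they were 1.46 and 1.48 for Pou5f1, 1.63 and 1.74 for Klf4, and 1.90 and 2.07 for Myc (0.5 µg/ml first in each pair), and with the control mean also subtracted, an alternative chosen after seeing the data, 1.46 and 1.48, 1.56 and 1.51, and 1.80 and 1.70. Subtracting the control mean in TPM gave 2.42 for Klf4 at 0.1 µg/ml, and 3.90 at 0.5 µg/ml and 3.68 at 0.1 µg/ml for Myc. The added Klf4 between the doses was 3.39 in TPM, 3.65 with upper quartile scaling and 3.87 with DESeq2 size factors.

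List counts moved by over 1.5 times in these cases. Of the 3 limma fits, 2 tested only genes with at least 1 TPM in at least 2 libraries. Zfp42, Sall4, Lin28a, Sox1, Sox11, Sox18 and Krt4, below 1 TPM on average in every group, were not tested there and count as not called. The cause of the remaining moves was not tested. At 0.5 µg/ml against control, the limma fits gave 2 or 3 in place of 5 SOX genes higher, 11 or 15 in place of 23 Myc-activated targets higher, and, on 2 of the 3 fits, 1 in place of 4 Oct4-Sox2 targets higher; a limma fit or a left-out library gave 1 in place of 2 Myc-repressed targets higher and 3 in place of 5 lower. At 0.1 µg/ml against control, at least 1 alternative gave 2 in place of 4 POU genes higher, 1 in place of 4 SOX genes lower, 2 in place of 4 KLF genes lower, 5 in place of 3 Myc partners higher, 1 in place of 3 lower, 1 or 2 in place of 4 Oct4-Sox2 targets higher, 1 in place of 0 lower, 1 in place of 2 Myc-repressed targets higher, 2 in place of 4 lower, 2 in place of 4 Myc-activated targets higher, 2 or 7 in place of 4 lower, and 1 in place of 2 Klf4 targets lower. Between the doses, at least 1 alternative gave 2 in place of 4 SOX genes higher, 1 in place of 4 Oct4-Sox2 targets higher, 5 in place of 3 Myc-activated targets lower, 2 in place of 1 Myc-repressed targets higher, and 2 in place of 4 Klf4 targets lower. Depth limits genes with few control counts, Pou5f1 and Sox2 included, whose fold sizes rest on those counts.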
